A study of Homo sapiens with 4 samples.

Results

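Astrocyte elevated gene-1, listed under its gene symbol MTDH, was followed together with 5 proteins reported to bind it: SND1, BCCIP, ZBTB16, CREBBP and YY1. These 6 genes, of 27953 genes or transcript identifiers on the array, were chosen by name and found through the RefSeq accession of each probe. This gave 7 probes, 2 of them for BCCIP and 1 for every other gene. Accessions named 24826 of 34127 probes, so a further probe of these genes may have been missed. The data come from SAS cells, a human tongue squamous cell carcinoma line. SB cells carried a stably integrated lentiviral pLKO.1 vector with the AEG-1 shRNA called B (AEG-1 is LYRIC in the labels), and SCt control cells carried the pLKO.1 vector according to the sample labels or a scrambled shRNA according to the methods. Both lines were kept in medium with 10% serum after 14 days of puromycin selection at 2 μg/ml, and the labels speak of stable clones, so a difference between clones and the effect of the shRNA cannot be told apart.

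AEG-1 is a lysine-rich transmembrane protein of the endoplasmic reticulum and perinuclear region that also enters the nucleus, and it is best known for its part in metastasis and drug resistance of carcinomas. It carries no enzymatic domain and works by holding other proteins. SND1 is a nuclease with Tudor and staphylococcal nuclease-like domains that belongs to the RNA-induced silencing complex and also acts as a transcriptional coactivator. BCCIP binds BRCA2 and the CDK inhibitor p21, ZBTB16 (PLZF) is a zinc finger repressor that recruits histone deacetylases, CREBBP (CBP) is a histone acetyltransferase and coactivator of many factors including NF-κB, and YY1 is a zinc finger factor that activates or represses depending on the proteins it recruits. The comparison asks whether cells that lose AEG-1 mRNA also change the mRNA of the proteins that AEG-1 works through.

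Each of the 4 two-colour arrays compared SB RNA, labelled red, with SCt RNA, labelled green. All shared 1 slide and 1 scan, and 0 arrays had the dyes exchanged, so a preference of a single probe for one dye cannot be told apart from a difference between the cells. Labels call the arrays biological replicates, and the methods speak in general of independent biological replicates for cell experiments, with a number that differs from the 4 arrays. Neither says that these arrays came from separate cultures, and the p-values then measure only the spread between these arrays, which may be technical. In red, 85.4% to 90.3% of an array's spots stood well above background, and in green 84.7% to 90.0%; precision is limited by the number of arrays. The arrays' log2 ratios correlated with each other by 0.05 (arrays 1 and 4) to 0.46 (arrays 1 and 3) over the probes tested, so agreement between arrays over all probes was moderate to low. All 10 squamous markers looked at, among them KRT5, KRT14 and TP63, were well above background in both channels on every array, but so were 10 of 11 markers of other cell types at the brightest probe of each. PTPRC of leukocytes had a median red intensity above background of 24044 at its brightest probe. Its probes A_33_P3364821 and A_33_P3309526 were detected too, each with 4 arrays in red and 4 in green. In contrast, PTPRC probe A_33_P3364811, and second probes of DCN and MLANA, were well above background on 0 arrays. The specificity of these probes could not be checked. The summed intensity of the squamous markers was 202340 to 387220 in red and 116984 to 220312 in green over the 4 arrays. For the other markers, where PTPRC and COL1A1 made up most of the sum, it was 30050 to 44231 and 15742 to 26550, and sums over different probes do not show how much of each cell type was present. The part of the other markers in the results was not tested. Between SB and SCt cells, 0 genes of either list passed the test, where 3.51% of all 23485 genes did.

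AEG-1 mRNA was 9.07-fold lower in SB than in SCt cells, whereas none of the 6 partner probes passed the test. Partner means lay between −0.07 and 0.16 on the log2 scale, that is between 0.950-fold and 1.12-fold of the level in SCt cells. The 95% intervals of the partners reached from 0.854-fold to 1.22-fold at their widest, and the interval of AEG-1, 0.0993-fold to 0.122-fold, lay far below all of them. Of the 7 member probes, 1 was thus past an adjusted p of 0.05 from limma, where 3.70% of all 28507 probes tested were (2.38% lower and 1.32% higher in SB cells). That is 376 probes higher and 679 lower, a split that turned to 5599 and 3340 when median centring replaced loess. Each of the 7 probes exceeded background clearly in both channels of every array, so no member was lost to the filter on dim probes.

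**Figure D1:**
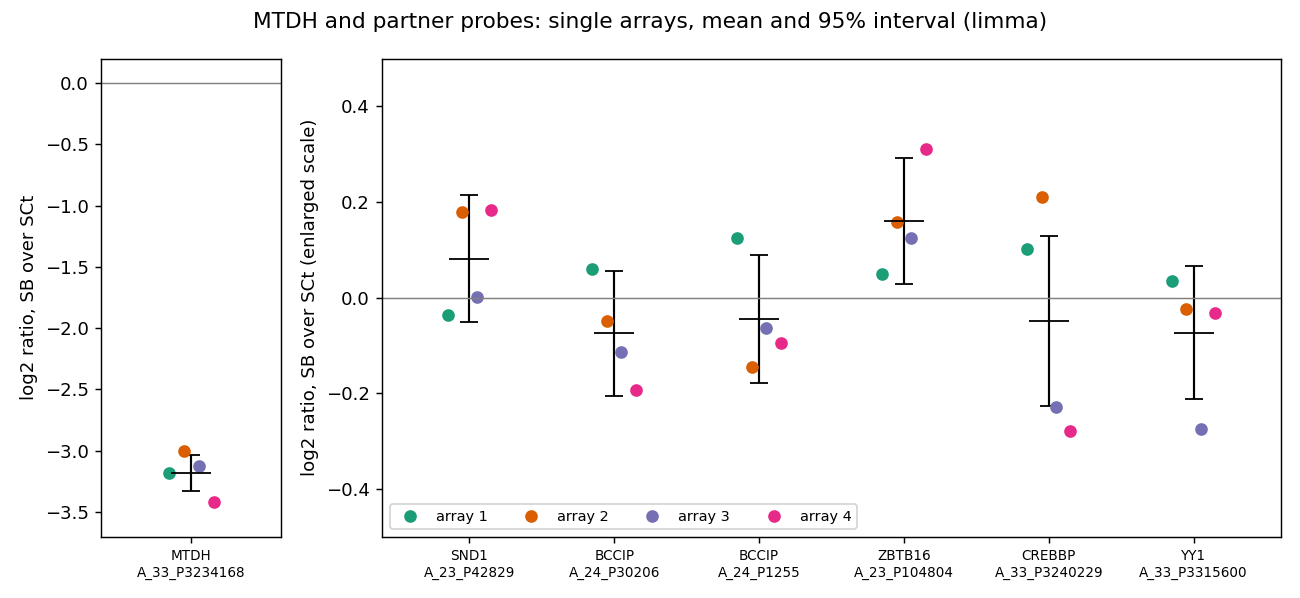
Log2 ratio of SB over SCt cells for the 7 member probes; dots are the 4 arrays, the horizontal tick is the mean and the bar its 95% interval from limma, and the right panel has an enlarged scale. The 4 dots of MTDH lie between −3.41 and −3.01, while every dot of the partners lies between −0.28 and 0.31.

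The probe of MTDH (A_33_P3234168, accession NM_178812) was read by 1 spot on each array. Its intensity above the local background in the green channel of SCt cells was 6317, 9715.5, 11015.5 and 10896 on arrays 1 to 4. In the red channel of SB cells it was 1424, 1818.5, 1848.5 and 1580. The red channel was thus the dimmer one on every array for this probe, while over all spots red was the brighter channel, with a median spot intensity of 655 to 875 against 362 to 588.5 in green.

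After normexp background correction and loess, which removes the difference in brightness of the dyes, the log2 ratio of MTDH was −3.18, −3.01, −3.12 and −3.41 on arrays 1 to 4. By this probe, AEG-1 mRNA in SB cells was 11.0%, 12.5%, 11.5% and 9.38% of the SCt level on the single arrays. Their mean log2 ratio was −3.18 ± 0.17 (SD, n = 4 arrays; limma, adjusted p = 5.22e-10), which corresponds to 11.0% of the control level with a 95% interval of 9.93% to 12.2%. No probe among those tested had a larger change in either direction, and the channels did not overlap: normalized log2 intensities were 13.18 to 13.75 in SCt cells and 9.99 to 10.60 in SB cells. An exact sign-flip test over 4 arrays of one direction gives p = 0.125, the smallest it can give.

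The remaining signal of MTDH in SB cells was measurable. Between 136 and 145 negative control spots per array, which are designed to bind no transcript, had a median red intensity above background of 3 to 4.5 and a highest value of 17.5, whereas the lowest red value of the MTDH spot was 1424. The spot was not saturated in the green channel on any array, so neither the background nor saturation set a limit to the ratio. Whether this probe also binds other transcripts could not be checked. For its spike-in controls, the scanner software listed a slope of measured against designed log ratios of 0.82, 0.841, 0.824 and 0.796 on arrays 1 to 4. Its part in the size of the AEG-1 ratio was not tested.

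**Figure D2:**
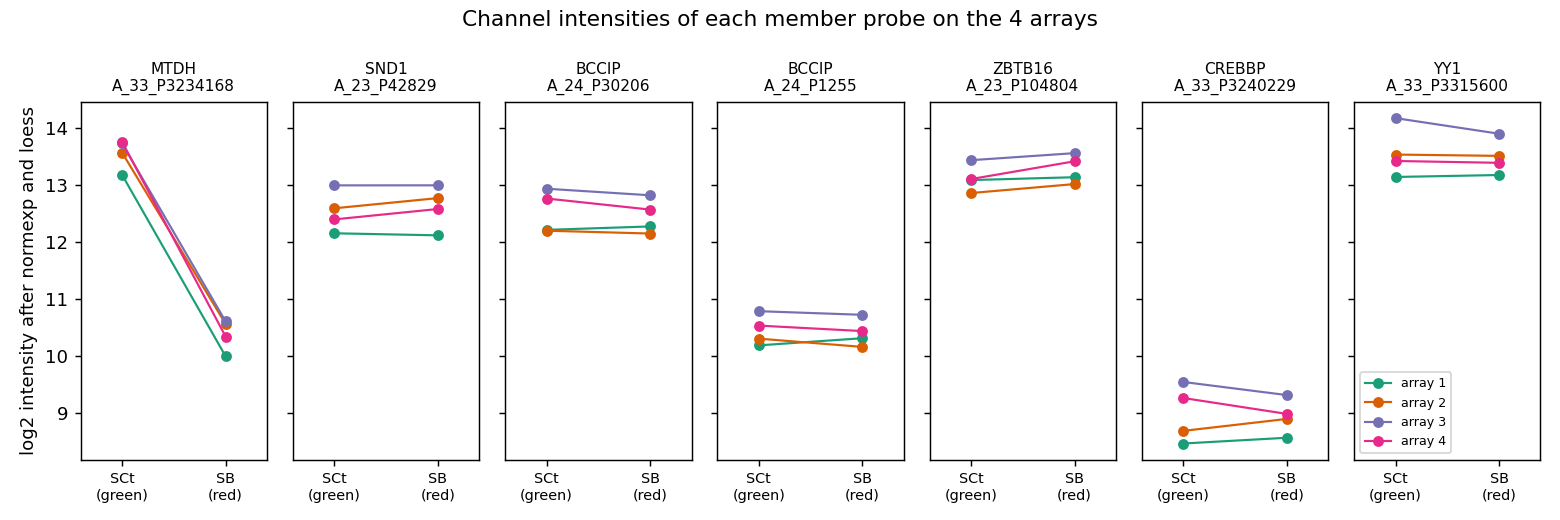
Normalized log2 intensity of each member probe in the green channel (SCt cells) and the red channel (SB cells), with 1 line for each of the 4 arrays. The lines of MTDH fall from between 13.18 and 13.75 to between 9.99 and 10.60, and those of the partners run nearly level; heights of different probes cannot be compared, since each probe binds with its own strength.

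By the distance between their 4 array values and those of MTDH, the nearest of 23137 genes were MMP1, UHMK1 and CAPZA1. MMP1, an interstitial collagenase, lay at a distance of 3.10 on the log2 scale, with a mean log2 ratio of −1.65 ± 0.33 (SD, n = 4 arrays). UHMK1, a kinase that binds splicing factors, lay at 3.58 with −1.41 ± 0.14, and CAPZA1, a capping protein of actin filaments, at 3.95 with −1.22 ± 0.13 (SD, n = 4 arrays each). The nearest gene thus fell by less than MTDH on every array, with −2.07, −1.26, −1.68 and −1.60. Each of the 3 genes fell on every array, but none came near the level of the change of MTDH. Both points largely follow from picking genes by closeness to the gene with the largest change, and are no separate result.

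SND1 was read by 1 probe (A_23_P42829, NM_014390). Its intensity above background was 3049.5, 4875.5, 6456.5 and 4204 in green and 6449, 8664, 10131 and 7674 in red on arrays 1 to 4. The log2 ratios were −0.04, 0.18, 0.00 and 0.18, near 0 on arrays 1 and 3 and higher in SB cells on arrays 2 and 4. The mean of 0.08 ± 0.12 (SD, n = 4 arrays; limma, adjusted p = 0.518) did not exceed the spread between arrays, and its 95% interval ran from 0.965-fold to 1.16-fold. Where loess was replaced by median centring, SND1 was called higher in SB cells (0.23; limma, adjusted p = 0.0192), and it was not called under the other 15 alternatives.

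BCCIP was read by 2 probes that carry the accessions of different transcripts. At the brighter one (A_24_P30206, NM_078468), the log2 ratios were 0.06, −0.05, −0.11 and −0.19 on arrays 1 to 4. At the dimmer one (A_24_P1255, NM_078469), they were 0.13, −0.14, −0.06 and −0.10. Both probes were higher in SB cells on array 1 and lower on arrays 2, 3 and 4. Their means were −0.07 ± 0.11 (limma, adjusted p = 0.552) and −0.04 ± 0.12 (limma, adjusted p = 0.751; SD, n = 4 arrays each), and neither exceeded the spread between arrays. With median centring the brighter probe turned to 0.07 and was not called either (limma, adjusted p = 0.452). Within arrays the brighter probe differed from the dimmer one by −0.03 ± 0.09 (SD, n = 4 arrays; exact sign-flip test, both directions counted, p = 0.5), less than the spread between arrays; with 4 arrays this test cannot give a p below 0.125. Intensity above background ranged from 3174 to 6216.5 in green and from 5579.5 to 8939.5 in red at the first probe, and from 767.5 to 1412.5 and from 1346.5 to 1975.5 at the second.

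ZBTB16, the transcriptional repressor known as PLZF, was the partner with the largest mean ratio. Its probe (A_23_P104804, NM_006006) gave 5756, 5857, 8659 and 6843 above background in green and 13383, 10325, 15225.5 and 13854.5 in red. The log2 ratios were 0.05, 0.16, 0.12 and 0.31, above 0 on each of the 4 arrays, with array 4 well above the others. The mean of 0.16 ± 0.11 (SD, n = 4 arrays) corresponds to 1.12-fold, with a 95% interval of 1.02-fold to 1.22-fold and an unadjusted p of 0.0209 from limma. It was not past the threshold after adjustment over all probes (limma, adjusted p = 0.173), and 14.0% of the probes tested had a larger change. Median centring in place of loess raised it to 0.34 (limma, adjusted p = 0.00369), the one alternative of 16 that called it.

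CREBBP, the acetyltransferase that joins p65 on NF-κB target promoters, had the lowest signal and the widest spread. Its probe (A_33_P3240229, NM_004380) gave 210.5, 290.5, 567.5 and 440.5 above background in green and 456, 517.5, 708.5 and 578.5 in red. The log2 ratios were 0.10 and 0.21 on arrays 1 and 2 and −0.23 and −0.28 on arrays 3 and 4. Arrays thus fell on both sides of 0, and the mean was −0.05 ± 0.24 (SD, n = 4 arrays; limma, adjusted p = 0.799), turning to 0.01 without array 3 and 0.03 without array 4. This SD was above that of most probes, since 5.55% of those with values on all arrays had a larger one and the median was 0.11. The 95% interval, 0.854-fold to 1.09-fold, covers both a fall and a rise, so the direction of a change cannot be told from these 4 arrays.

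YY1 had log2 ratios of 0.03, −0.02, −0.27 and −0.03 on arrays 1 to 4 at its probe (A_33_P3315600, NM_003403). Array 3 lay below the other 3 arrays, whose values ran from −0.03 to 0.03. The mean was −0.07 ± 0.14 (SD, n = 4 arrays; limma, adjusted p = 0.584), with a 95% interval of 0.863-fold to 1.05-fold, and it turned to 0.13 under median centring without being called (limma, adjusted p = 0.156). Intensity above background was 5973.5, 9277.5, 14233.5 and 8521.5 in green and 13760, 14729, 19622.5 and 13623.5 in red. YY2 is a near copy of YY1 that arose by retroposition; probe sequences were not used here, so whether the YY1 probe also binds YY2 could not be checked, and the probe of YY2 had a mean of −0.04 ± 0.14 (SD, n = 4 arrays).

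**Figure D3:**
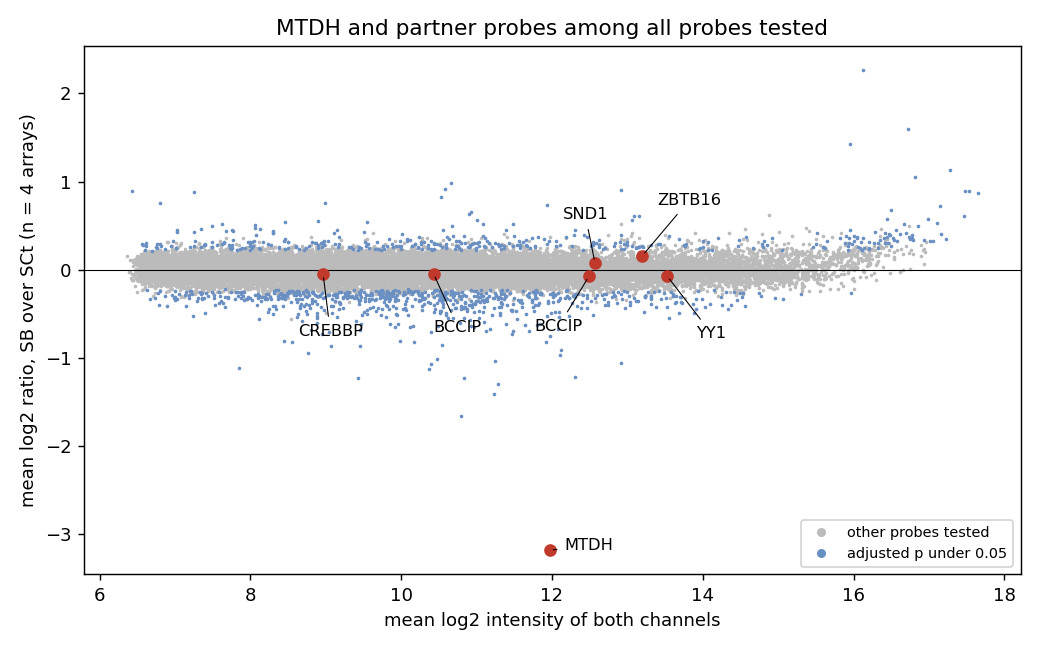
Mean log2 ratio of SB over SCt cells (n = 4 arrays) against mean log2 intensity of both channels for the 28507 probes tested; blue dots passed an adjusted p of 0.05 and red dots are the 7 member probes. MTDH, at −3.18, stands below every other probe, and the partner probes, from −0.07 to 0.16, lie inside the grey band.

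YY1 binds DNA, so the core of its known binding site was looked for in RefSeq windows of 300 bases around gene starts (250 before and 50 after, GRCh38.p14), a search chosen after the array values were known. The letters searched were AAGATGG on either strand, and 5.84% of the 35116 windows held them. Windows were found for SND1, CREBBP and YY1 among the members, and the motif stood in that of CREBBP, beginning at base 21 after the start. The sites of CREBBP and of the genes from the partner lists described further on that hold the motif after their start are shown 5′ to 3′ on the gene's strand with the motif in capitals, so that the CREBBP site can be read beside those of other cofactor genes. They lie at chr16:3880675-3880704 for CREBBP, chr17:39451230-39451259 for MED1, chr17:16215511-16215540 for NCOR1, chr2:239401621-239401650 for HDAC4 and chr1:67430370-67430399 for SERBP1 on the minus strand. Those of ACTR5 at chr20:38748465-38748494, CRTC1 at chr19:18683689-18683718 and KAT5 at chr11:65712254-65712283 lie on the plus strand.
CREBBP: atcaacagccgCCATCTTgtcgcggacccg
MED1: ttccgttggggAAGATGGcggcggcctcga
NCOR1: ggggttgagtcAAGATGGcggccaaggtgg
HDAC4: tgccagtatccAAGATGGacgccgcggcga
SERBP1: tctcggcccggCCATCTTgtgggaagagct
ACTR5: acgcgcgctccAAGATGGcggcgaacgtgt
CRTC1: gtggcggcgagAAGATGGcgacttcgaaca
KAT5: tggagggagggAAGATGGcggaggtggtga
In CREBBP and SERBP1 the motif runs on the opposite strand, and in the other genes shown on the same strand as the gene. None of these genes passed the test at its brightest probe. A second SERBP1 probe did, at −0.27 ± 0.08 (SD, n = 4 arrays), with an adjusted p of 0.0241 from limma. At the brightest probes beside CREBBP, mean log2 ratios ran from −0.17 ± 0.10 for SERBP1 to 0.21 ± 0.13 for HDAC4. SERBP1 is an RNA-binding protein of the ribosome, and HDAC4 is a deacetylase whose value comes from 3 arrays. MED1, a Mediator subunit, had −0.13 ± 0.13, the corepressor NCOR1 −0.03 ± 0.08 and ACTR5, a subunit of the INO80 remodeller, 0.01 ± 0.03 (SD, n = 4 arrays each). Dimmer NCOR1 probes had 0.07 ± 0.15 and 0.06 ± 0.04, and a dimmer MED1 probe −0.19 ± 0.20 (SD, n = 4 arrays each). Across all 1088 measured genes with the motif, 10 were called higher (0.919%) and 34 lower (3.13%), 4.04% in all. Of the 13072 measured genes with a window, 1.21% were called higher and 2.95% lower, 4.16% in all. The share with a ratio above 0, called or not, was 46.2% of the genes with the motif and 50.1% of all those genes, with medians of −0.01 and 0.00, a difference that was not tested. A match is a description of these letters and does not show that YY1 is bound.

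Other genes that work with the 5 partners were then read from 7 lists, with 1 probe per gene, the brightest that passed the filter. Of 99 genes on the lists, 98 were matched on the array and 96 passed the filter on dim probes; EED was not matched, and STAT5A and ZFP42 did not pass. Among the 96, 0 rose and 3 fell, or 3.13%, close to the background of 3.51% of all 23485 genes (1.26% higher and 2.26% lower). The median log2 ratio was 0.00 against 0.01 for all genes, with 48 genes higher and 48 lower in SB cells. These counts rest on p-values adjusted over all probes tested.

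**Figure D4:**
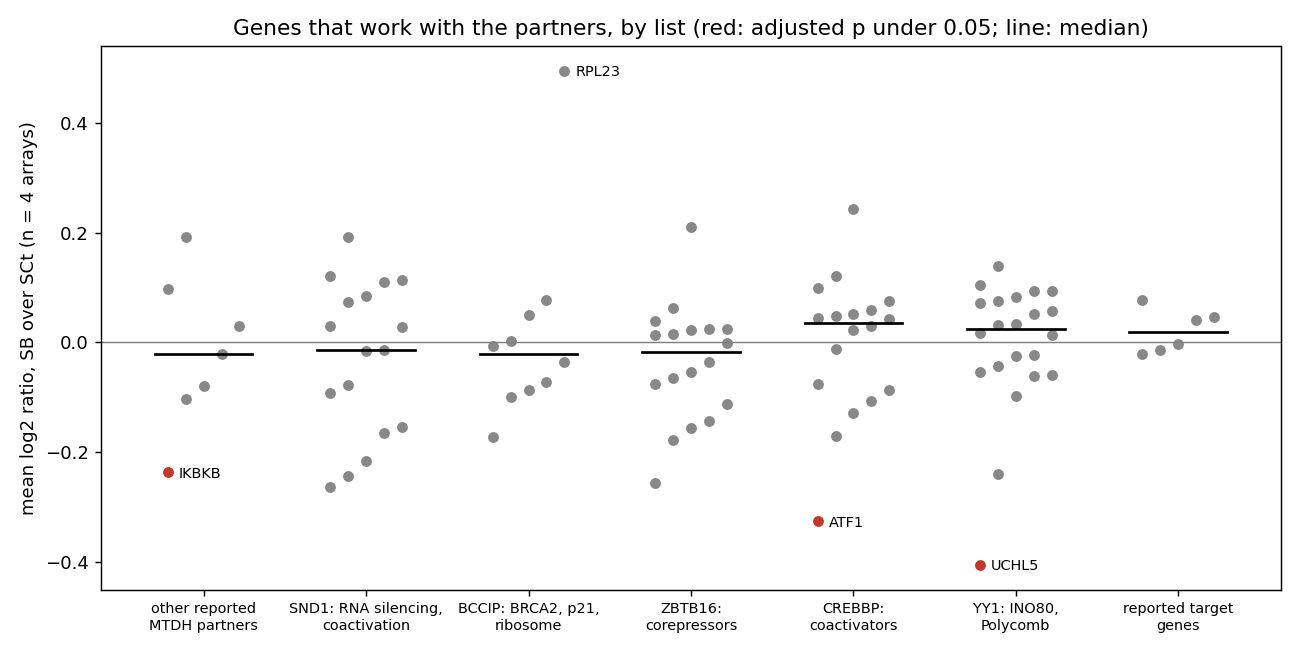
Mean log2 ratio of SB over SCt cells (n = 4 arrays) of the 96 list genes measured, grouped by list, with the median of each list as a line; AGO2 and CDKN1A stand in more than one list. Genes past an adjusted p of 0.05 are red: IKBKB, ATF1 and UCHL5, at −0.24, −0.33 and −0.41; RPL23, at 0.50, was not past it.

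Of the other proteins reported to bind or meet AEG-1, 7 were measured and 1 passed the test, where 3.51% of all 23485 genes did. IKBKB, the kinase subunit that marks IκB for degradation, had log2 ratios of −0.22, −0.14, −0.36 and −0.23 on arrays 1 to 4 and fell by a mean of 0.24 on the log2 scale (SD 0.09, n = 4 arrays; limma, adjusted p = 0.0462). It was just inside the threshold, and 8 of 16 alternatives put it outside (adjusted p 0.0224 to 0.271 over all 16), among them the loss of array 1, 2 or 3 (limma, adjusted p = 0.107, 0.11 and 0.206). RELA, the p65 subunit of NF-κB, had a mean of −0.10 ± 0.12 (SD, n = 4 arrays), with an adjusted p of 0.407 from limma. A dimmer RELA probe had −0.03 ± 0.11 (SD, n = 4 arrays), with an adjusted p of 0.862 from limma. RXRA, a nuclear receptor that AEG-1 holds back, had −0.02 ± 0.07, and AGO2, the slicer of the silencing complex, 0.19 ± 0.16 (SD, n = 4 arrays each), neither past the threshold. The median of the 7 genes was −0.02.

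In the list of SND1's partners in RNA silencing and transcription, 17 of 18 genes were measured. Of them 0 passed the test in either direction, where 3.51% of all 23485 genes did. Log2 ratios of the 17 genes ran from −0.26 to 0.19 around a median of −0.01. The brightest probes of the 4 Argonaute genes had means from 0.03 to 0.19, although a dimmer AGO3 probe had −0.13 ± 0.12. DICER1, the nuclease that makes small RNAs, and PRKRA, its RNA-binding helper, had −0.22 ± 0.13 and −0.26 ± 0.15 (SD, n = 4 arrays each; limma, adjusted p = 0.0856 and 0.0511). A second probe of SERBP1 that did not stand for its gene was past the threshold at −0.27 ± 0.08 (limma, adjusted p = 0.0241), whereas the brightest gave −0.17 ± 0.10 (limma, adjusted p = 0.153; SD, n = 4 arrays each).

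In the list around BCCIP, 10 of 10 genes were measured and 0 passed the test, where 3.51% of all 23485 genes did. BRCA2, whose recombination function BCCIP assists, averaged 0.05 ± 0.11 on the log2 scale (SD, n = 4 arrays). CDKN1A, which encodes p21, had 0.08 ± 0.08. RPL23, a ribosomal protein that binds BCCIP, had a wide range, 0.98, 0.56, 0.53 and −0.09 on arrays 1 to 4, and a mean of 0.50 ± 0.44 (SD, n = 4 arrays; limma, adjusted p = 0.0505). Array 4 alone lay below 0 for that gene. A dimmer RPL23 probe had 0.29 ± 0.40 (SD, n = 4 arrays), with an adjusted p of 0.195 from limma. SEM1, a small protein that binds BRCA2, spread still wider, from 0.50 on array 1 to −0.63 on array 4, around a mean of −0.01 ± 0.47 (SD, n = 4 arrays).

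Of the corepressors used by ZBTB16 and related BTB zinc finger proteins, 18 of 18 were measured, with a median log2 ratio of −0.02. Of them 0 passed the test, where 3.51% of all 23485 genes did. The deacetylases HDAC1 and HDAC3 were both at 0.03, with SDs of 0.10 (n = 4 arrays each). HDAC4, which binds ZBTB16, had 0.21 ± 0.13 from the 3 arrays on which its spot was no outlier, and 0.08 ± 0.18 at a dimmer probe (SD, n = 4 arrays). At the lower end, TBL1XR1, a subunit of the NCOR complex, had −0.26 ± 0.24 (SD, n = 4 arrays; limma, adjusted p = 0.112), while its dimmer probe had 0.04 ± 0.20.

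Around CREBBP, 18 of 18 genes were measured, with a median log2 ratio of 0.04. Of them 1 passed the test, where 3.51% of all 23485 genes did. ATF1, a bZIP factor of the CREB family that recruits CREBBP, had log2 ratios of −0.18, −0.28, −0.31 and −0.53 on arrays 1 to 4 and fell by 0.33 on average, with an SD of 0.15 over 4 arrays and an adjusted p of 0.0177 from limma. It was past the threshold under 11 of 16 alternatives (adjusted p 0.0162 to 0.297) and lost it when array 2 or array 3 was left out (limma, adjusted p = 0.0664 and 0.131). EP300, the paralog of CREBBP, had 0.05, 0.12, 0.05 and 0.08, a mean of 0.08 ± 0.03 (SD, n = 4 arrays; limma, adjusted p = 0.493). CREB1, the factor that gave CREBBP its name, had −0.17 ± 0.10 and the coactivator NCOA2 0.24 ± 0.17 (SD, n = 4 arrays each; limma, adjusted p = 0.145 and 0.0786), with 0.14 ± 0.22 at a dimmer NCOA2 probe.

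Among the INO80 and Polycomb proteins that act with YY1, 22 of 24 genes were measured, with a median log2 ratio of 0.02. Of them 1 passed the test, where 3.51% of all 23485 genes did. UCHL5, a deubiquitinase shared by INO80 and the proteasome, had log2 ratios of −0.30, −0.39, −0.46 and −0.48 on arrays 1 to 4. It fell by 0.41 on average (SD 0.08, n = 4 arrays; limma, adjusted p = 0.00276), and its second probe gave −0.30 ± 0.05 (limma, adjusted p = 0.0125). Of 16 alternatives, the methods' t-test alone put UCHL5 outside the threshold (adjusted p = 0.198). INO80, the ATPase of the complex, had 0.06 ± 0.07, and −0.02 ± 0.09 at a dimmer probe (SD, n = 4 arrays each). The Polycomb subunits EZH2 and SUZ12 had −0.10 ± 0.17 and −0.24 ± 0.13 (SD, n = 4 arrays each), with adjusted p of 0.489 and 0.0605 from limma.

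Genes reported to be controlled through these partners were measured 6 of 6, with 0 past the threshold, where 3.51% of all 23485 genes were. SLC1A2, the glutamate transporter that AEG-1 is reported to repress with YY1 and CREBBP in astrocytes, had a log2 ratio of 0.04 ± 0.14. MYC and CCNA2, targets of ZBTB16, had −0.00 ± 0.13 and 0.05 ± 0.12, and ABCB1, a drug efflux pump, had −0.02 ± 0.06 (SD, n = 4 arrays each). The 6 genes lay between −0.02 and 0.08 on the log2 scale.

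**Figure D5:**
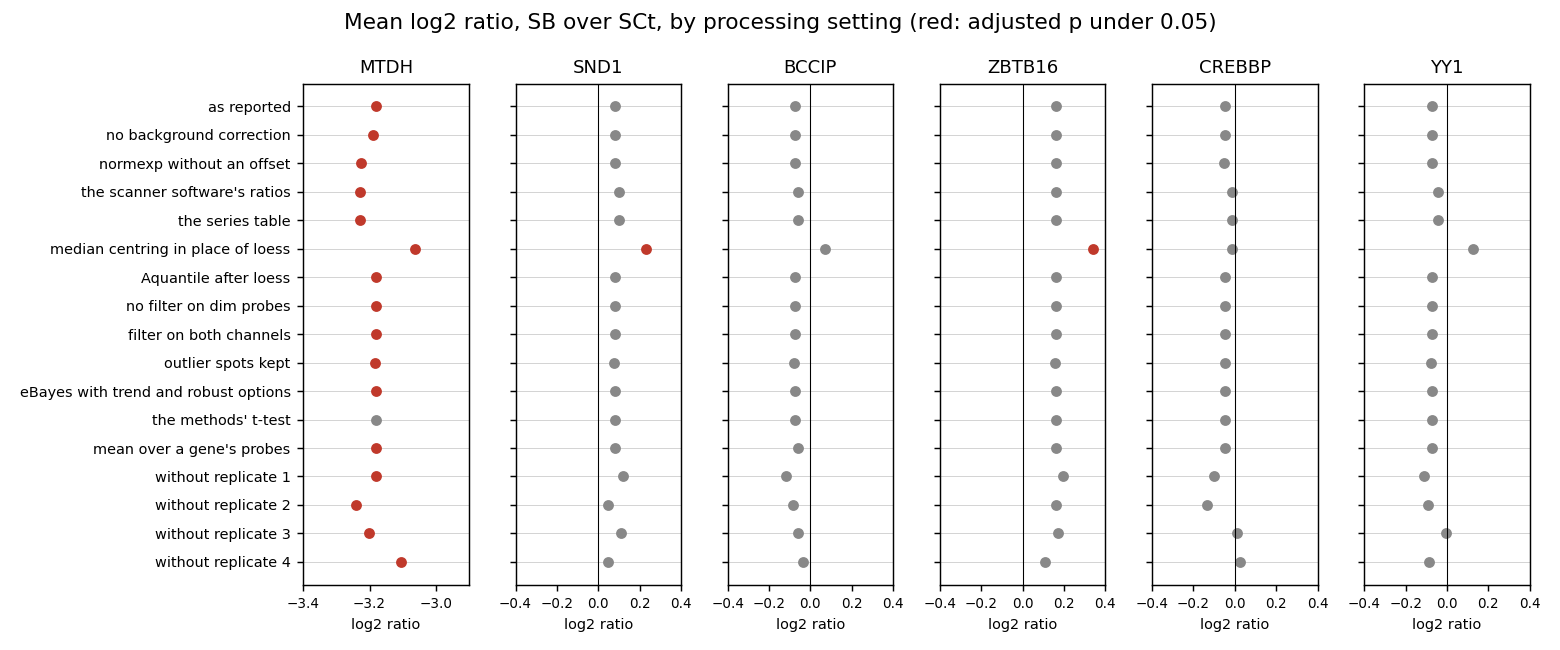
Mean log2 ratio of SB over SCt cells for each member gene under the processing reported and 16 alternatives, red where the adjusted p was under 0.05. MTDH stays between −3.24 and −3.06, and median centring moves SND1 to 0.23 and ZBTB16 to 0.34, both red there.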

How the data were processed

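Total RNA of SB and SCt cells (15 μg each) was labelled with a red and a green Alexa dye, and hybridized to Agilent human V2 arrays whose probes refer to the GRCh37 build. The authors deposited the output of Agilent Feature Extraction 10.5.1.1, in which the median spot and local background intensity is linear and not normalized, and the software's log10 ratio of red over green after its own background subtraction and dye normalization. The authors' series table holds log2 ratios that matched the software's processed signals to within 0.001 for 97.6% to 97.9% of 34127 probes; its medians per array were −0.02 to 0.02. Per the labels, red is SB on every array.

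The analysis used limma 3.58.1 under R 4.3.3. Normexp with an offset of 50 was fitted on all 44495 spots, 1377 control spots and the outlier spots (1.89% to 2.71% per array) were left out, log2 ratios were normalized by loess within arrays, and spots of one probe were averaged. The offset makes changes of weak spots smaller. A probe entered the test if either channel was flagged well above background on each of the 4 arrays, always the same channel (50% of spots or more where a probe had several), with values on at least 2, which left 28507. The mean was tested against 0 with lmFit and eBayes, with Benjamini-Hochberg adjustment over these probes. Accessions were matched to RefSeq (GRCh38.p14) without versions for 24826 probes; the builds differ, so no probe positions are given. The methods' 2.5-fold threshold was passed by 6 genes. Members, lists and tests were chosen with earlier results of these data known. Named are all member probes, up to 4 list genes past the threshold per list, and the 3 genes nearest to MTDH; other list genes were picked after their values were seen. The steps were also run on simulated data with independent noise and a linear dye trend, which does not show how they perform on these arrays. A longer form of the YY1 motif was searched first and is not used here. The processing was repeated with median centring, with Aquantile, without background correction, with normexp lacking its offset, with 2 other filters on dim probes, with outliers kept, on the scanner's own ratios, on the series table, with trend and robust eBayes, with the t-test of the methods, over the mean of a gene's probes, and without each array. The value of 1 list gene is not reported here.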

Additional observations from a re-analysis of the deposited data

How the results depend on the processing

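MTDH was lower under all 16 alternatives (log2 ratio −3.24 to −3.06) and past the threshold under 15; by the methods' t-test (−3.18) the adjusted p was 0.143. Under median centring, SND1 (0.23) and ZBTB16 (0.34) were called higher, BCCIP (0.0689) and YY1 (0.13) turned in sign without being called, 27 list genes were called in place of 3 (23 higher, 4 lower), and 8939 probes in place of 1055 (5599 higher, 3340 lower, against 376 and 679). The cause was not tested. With arrays left out in turn, log2 ratios ran from −3.24 to −3.10 for MTDH, 0.05 to 0.12 for SND1, −0.12 to −0.03 for BCCIP, 0.11 to 0.20 for ZBTB16, −0.14 to 0.03 for CREBBP and −0.11 to −0.01 for YY1, with no partner called; CREBBP turned in sign without replicate 3 (0.01) and without replicate 4 (0.027). Called probes then ranged from 204 (without replicate 3) to 1977 (without replicate 4), with 638 without replicate 1 and 421 without replicate 2, and called list genes from 1 (without replicate 2 or 3) to 8 (without replicate 4). List genes called were 5 without background correction and with no filter on dim probes, 1 under the series table and 0 under the t-test, which called 0 probes (3936 at an unadjusted p under 0.05). The series table called 698 probes and eBayes with trend and robust options 579. Aquantile after loess leaves ratios as they are and changed no call. Each ratio already sets SB against SCt RNA of the same array, and the test of the mean ratio is paired in that sense. No further paired analysis was possible because the replicate numbers name single arrays of 1 group, which leaves no further block to fit.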
